A study of Mus musculus with 4 samples.

Results

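The p53 protein is a transcription factor that stressed cells stabilise, and the genes examined here are Trp53, which encodes it, its main regulator Mdm2, and 8 genes it is known to switch on directly: Ccng1, Gadd45a, Btg2, Sesn1, Perp, Fas, Phlda3 and Trp53inp1. They were measured in NF639, a mouse mammary tumour cell line that came from a tumour driven by the ErbB2 oncogene. A pool of NF639 cells that withstands the green tea catechin epigallocatechin 3-gallate (EGCG) was compared with the NF639 cells of the original population, with 2 arrays for each, Resistant 1 and 2 and Original 1 and 2. Both populations carry the same oncogenic background, and the resistant cells are a pool rather than a clone. The labels give no dose of EGCG, no length of selection and no word on whether EGCG was present when RNA was taken. The RNA is described as coming from separate experiments, and p-values measure only the spread between these arrays.

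Members were taken as the probe sets that the platform annotation gives to that one gene symbol alone. Of the 10 genes, 9 had such a probe set, 16 probe sets in all, out of 12393 genes and 22626 probe sets on the arrays. Trp53 had none, so that its own level was not analysed here and what follows concerns its regulator and its targets. All 16 probe sets passed the filter on dim signals (mean log2 signal over the 4 arrays at or above the 40th percentile, a signal of 49.1), which left 13576 probe sets for the tests. Values are MAS5 signals, a linear brightness in arbitrary units that cannot be compared between probe sets. The differences are resistant minus original on the log2(signal + 3) scale, with limma's SE.

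In a cell with working p53, DNA damage and other stress signals stop Mdm2, a ubiquitin ligase, from driving p53 to destruction. The protein then binds DNA as a tetramer and turns on genes for cell-cycle arrest, repair, altered metabolism and apoptosis, Mdm2 among them, which closes a negative feedback loop. In mammary epithelium p53 is best known as a tumour suppressor, and mRNA of its targets is a common readout of its activity, although most of these targets answer to other factors too.

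The sequence p53 recognises is made of decamers known as the p53 half-site. To show where this feature lies in the genes described below, the 250 bases before each start in RefSeq (GRCm38.p6) were searched for the half-site consensus of 10 letters, which reads the same on both strands. The table held windows for 8 of the 10 genes, 9 windows in all because Sesn1 has 2 starts. An exact half-site was found in 5 of the 9 windows, those of Trp53, Mdm2, Ccng1, Gadd45a and 1 start of Sesn1, and in 7.13% of all 32851 windows. The windows of Btg2, Fas, Phlda3 and the other Sesn1 start held no exact match, which says only that these letters are not in the window. Each window with a match held 1 half-site, which says only that the letters are there. Whether p53 binds at any of them was not tested, and sequence outside the windows was not searched. The 4 windows with a match that belong to measured genes are printed 5′ to 3′ with the half-site in capitals. It begins 186 bases before the start of Mdm2, 185 before that of Ccng1, 40 before that of Gadd45a and 173 before that of Sesn1.
Mdm2, chr10:117710759-117711008, minus strand: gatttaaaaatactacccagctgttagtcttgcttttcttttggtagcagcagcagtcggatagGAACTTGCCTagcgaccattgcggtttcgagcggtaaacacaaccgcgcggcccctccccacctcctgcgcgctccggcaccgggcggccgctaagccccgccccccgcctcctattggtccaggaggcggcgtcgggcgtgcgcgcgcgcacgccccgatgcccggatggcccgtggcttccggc
Ccng1, chr11:40755287-40755536, minus strand: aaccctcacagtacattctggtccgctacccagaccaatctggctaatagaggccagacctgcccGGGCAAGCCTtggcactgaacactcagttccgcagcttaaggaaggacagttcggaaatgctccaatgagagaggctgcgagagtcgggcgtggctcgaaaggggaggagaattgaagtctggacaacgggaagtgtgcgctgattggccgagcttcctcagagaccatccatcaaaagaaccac
Gadd45a, chr6:67037408-67037657, minus strand: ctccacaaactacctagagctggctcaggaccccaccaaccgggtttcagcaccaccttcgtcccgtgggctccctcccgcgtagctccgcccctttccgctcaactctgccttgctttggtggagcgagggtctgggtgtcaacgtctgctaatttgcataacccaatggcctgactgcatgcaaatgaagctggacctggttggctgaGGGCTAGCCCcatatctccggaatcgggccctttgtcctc
Sesn1, chr10:41887189-41887438, plus strand: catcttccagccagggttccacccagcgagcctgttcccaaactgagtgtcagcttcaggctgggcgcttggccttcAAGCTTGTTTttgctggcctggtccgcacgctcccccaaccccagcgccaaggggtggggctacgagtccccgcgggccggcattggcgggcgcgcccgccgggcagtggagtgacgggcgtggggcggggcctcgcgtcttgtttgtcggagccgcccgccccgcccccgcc

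None of the regulator and target genes differed between the populations in the test across all probe sets. With limma and Benjamini-Hochberg adjustment 0 of the 16 probe sets passed the threshold of 0.05, against 0.169% of the 13576 tested (23 probe sets), and their adjusted p ran from 0.709 to 0.999. At an unadjusted p under 0.05 there were also 0 of 16, against 7.35% of all tested. Taking the brightest probe set of each gene, 7 of the 9 genes were fitted above 0 and 2 below, beside 6721 of the 13576 tested probe sets above 0. With 1 array left out the sign turned for all but Perp and Trp53inp1. Such a fit sets unequal array numbers against each other, so it takes in part of the difference between numbers 1 and 2. Within the numbers the sign differed for 5 of the 9 genes, and Ccng1 and Btg2 were above 0 in both. The median log2 difference of the 9 genes was 0.12 (lowest -0.30 for Fas, highest 0.66 for Trp53inp1), beside -0.0035 over all tested probe sets. For 6 of the 9 genes the difference was under 0.2 in size, and the 95% interval included 0 for each of the 9.

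**Figure D1:**
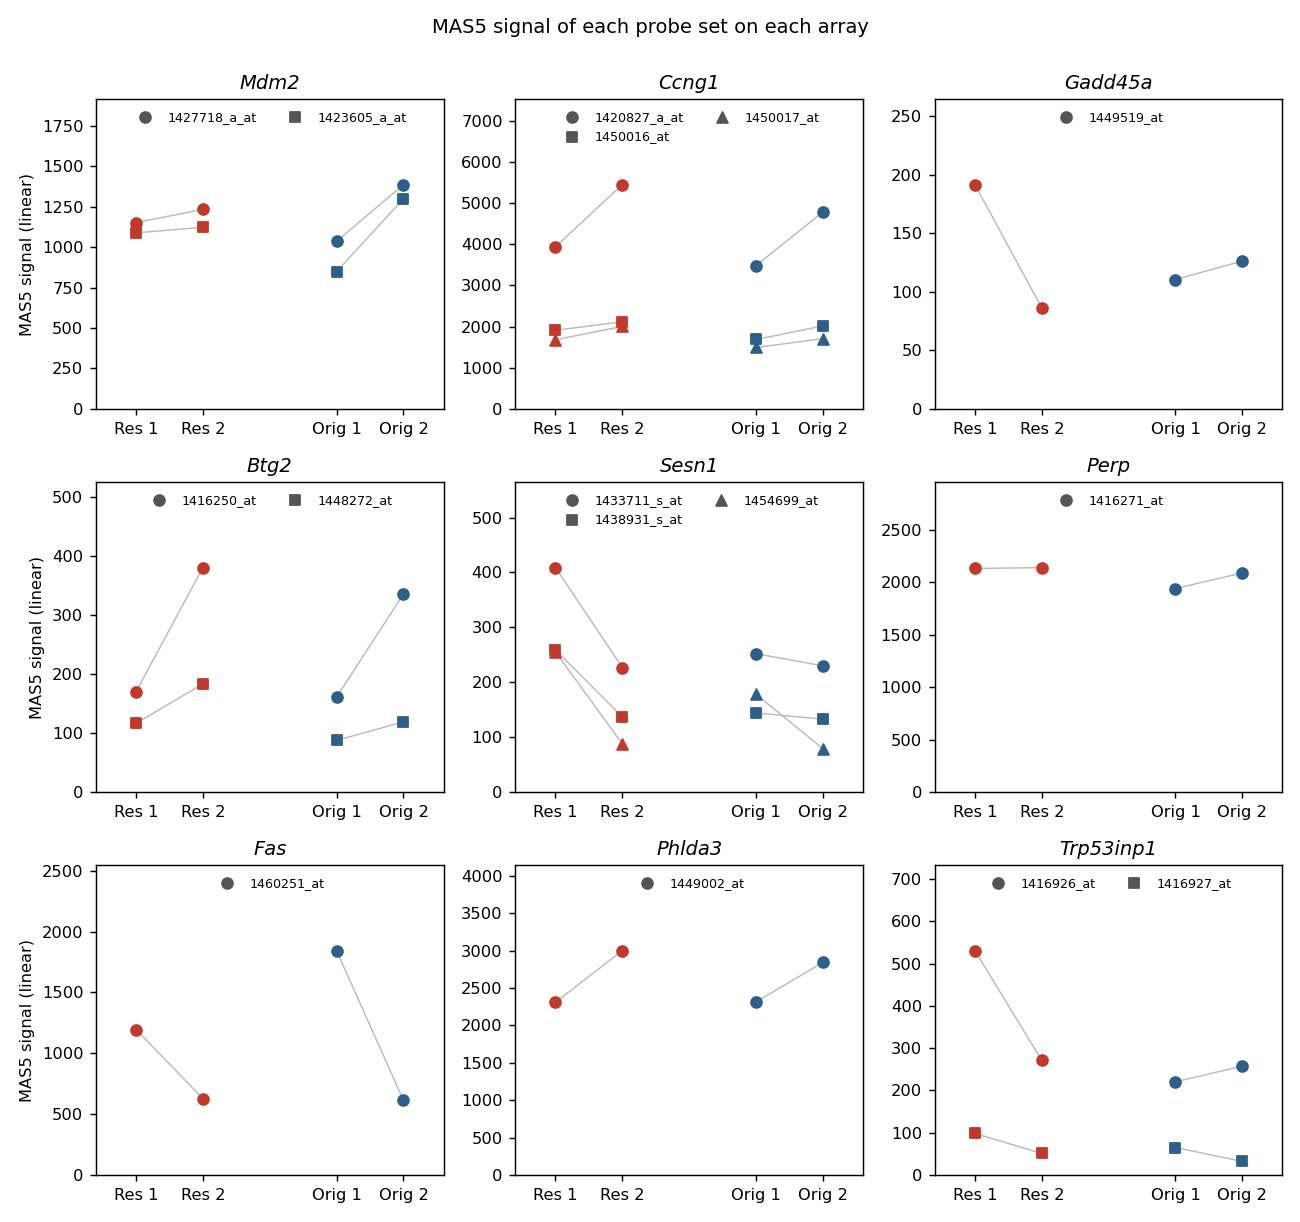
MAS5 signal (linear, axis from 0) of each probe set on each of the 4 arrays, 1 panel per gene, with resistant arrays (Res) in red and original arrays (Orig) in blue; grey lines join the arrays of 1 population and marker shapes separate probe sets. Perp and the brighter probe set of Trp53inp1 are the 2 probe sets in which both resistant values lie above both original values.

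Arrays of the same number resembled each other in controls that do not come from the cells. BioB, BioC and BioDn are bacterial transcripts added to the hybridisation mix, and all 7 of their probe sets were brighter on the array numbered 2, by 1.48 to 2.29 times in the resistant pool and 1.39 to 2.11 times in the original population. Set against the original array of its own number, Resistant 1 was 0.938 to 1.01 times and Resistant 2 0.991 to 1.14 times as bright in these probe sets. No label names a batch, so differences are given below also within each number, as Resistant 1 minus Original 1 and Resistant 2 minus Original 2. Whether the step of hybridisation has a part in any difference between the numbers was not tested. Of 8 mammary epithelial markers only Erbb2 passed the filter. Krt8, the brightest of the rest, had signals of 62.9 and 27.5 in the resistant pool, against 47.4 and 53.1 in the original population, and Krt18, Krt19, Epcam, Cdh1, Cldn4 and Cldn7 were also below the filter, so that most defining markers of mammary epithelium were at or under the dim end of the scale on these arrays. The summed signal of 4 endothelial markers was 47.9 and 31.8 in the resistant pool, against 38.2 and 69.4 in the original population, with all 4 below the filter. The summed signal of the 6 leukocyte markers with a probe set was 390.8 and 423 against 557.3 and 399.7. Of these 3 passed the filter, Lyz2, Laptm5 and Cd14, with 0 called, while Ptprc, Cd52 and Cd3e were below it. Ptprc had signals of 12 and 7.4 in the resistant pool, against 8.6 and 14.8 in the original population. The summed signal of 6 fibroblast markers was 3815.6 and 3957.5 against 5593 and 4939.1. Most of each sum came from 1 Col1a2 probe set, at 2427.3 and 3228.5 against 4171.7 and 4416. The sum thus does not speak for the other fibroblast markers. Among the fibroblast markers 4 of 6 passed the filter and 0 were called. With the array number as a block those 4 were called in both directions, in a fit that calls 5.23% of all tested probe sets. By their brightest probe sets Col1a1 (0.99) and Pdgfra (0.72) were higher and Col1a2 (-0.62) and Dcn (-2.15) lower in the resistant pool. The dimmer probe sets of Col1a1 (-0.06) and Pdgfra (0.28) were not called in that fit, and that of Col1a2 (-0.72) was. Whether any of these cell types has a part in the values below was not tested.

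Mdm2 encodes the ligase that marks p53 for degradation and is itself a p53 target. Its probe set 1427718_a_at had signals of 1151.5 and 1232.8 in the resistant pool, against 1035.2 and 1386.4 in the original population. Its probe set 1423605_a_at had 1088.7 and 1122.1 in the resistant pool, against 848.3 and 1298.7 in the original population. In both probe sets the resistant values lay inside the span of the original values. The log2 difference was -0.01 ± 0.193 (SE) for the first (95% interval -0.44 to 0.42) and 0.07 ± 0.217 (SE) for the second. The sign turned with the array number, at 0.15 and 0.36 within number 1 and -0.17 and -0.21 within number 2.

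Among the genes of cell-cycle arrest and growth control, Ccng1 and Btg2 differed more between the array numbers than between the populations, while Gadd45a had no common direction between the numbers. Ccng1 encodes cyclin G1, a p53 target that acts with a phosphatase on Mdm2. Its brightest probe set, 1420827_a_at, had signals of 3937.5 and 5451.6 in the resistant pool, against 3482.3 and 4785.6 in the original population, so the groups overlapped while the array numbered 2 was the higher in each. The log2 difference was 0.18 ± 0.214 (SE; 95% interval -0.29 to 0.66), and it was 0.18 within number 1 and 0.19 within number 2. The other 2 probe sets, 1450016_at and 1450017_at, differed by 0.12 ± 0.173 (SE) and 0.20 ± 0.176 (SE). All 3 Ccng1 probe sets were thus higher in the resistant array of each number, by 1.05 to 1.17 times, and 0 of 3 passed (limma adjusted p = 0.89 to 0.962).

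Btg2 encodes an antiproliferative protein that works with the enzymes that shorten mRNA tails. Its brighter probe set, 1416250_at, had signals of 169.8 and 380.3 in the resistant pool, against 160.9 and 335.4 in the original population. The populations overlapped, whereas the array numbered 2 was 2.24 times as bright as number 1 in the resistant pool and 2.08 times in the original population. The log2 difference between the populations was 0.13 ± 0.42 (SE; 0.08 and 0.18 within the numbers). The dimmer probe set, 1448272_at, had 116.2 and 183.1 in the resistant pool, against 87.2 and 118.8 in the original population, a difference of 0.51 ± 0.349 (SE; limma adjusted p = 0.843), with 0.40 and 0.61 within the numbers. The 2 probe sets share a direction and differ in size.

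Gadd45a encodes a small stress protein that binds cell-cycle and repair factors. Its single probe set, 1449519_at, had signals of 191.6 and 86.3 in the resistant pool, against 110.5 and 126.3 in the original population. Resistant 1 was the highest and Resistant 2 the lowest of the 4 arrays. The log2 difference was 0.12 ± 0.393 (SE; 95% interval -0.75 to 0.99), made of 0.78 within number 1 and -0.54 within number 2, so that its direction rested on which resistant array was read.

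Sesn1 and Trp53inp1 had the largest positive differences among the brightest probe sets, and in both genes Resistant 1 was the highest array. Sesn1 encodes sestrin 1, which restrains the growth kinase complex mTORC1 when nutrients or redox balance fail. Probe set 1433711_s_at had signals of 408.8 and 226.5 in the resistant pool, against 251.8 and 229.8 in the original population, a log2 difference of 0.33 ± 0.301 (SE; 95% interval -0.33 to 1.00). Probe set 1438931_s_at had 258.7 and 136.4 against 143.9 and 132.5, a difference of 0.44 ± 0.343 (SE), and 1454699_at had 255.3 and 87.5 against 178 and 78.9, a difference of 0.33 ± 0.511 (SE). In all 3 probe sets Resistant 1 was the highest array while Resistant 2 lay within 0.986 to 1.11 times Original 2. Within number 1 the differences were 0.69, 0.83 and 0.51, and within number 2 they were -0.02, 0.04 and 0.14. The suffix _s_at marks probe sets that the array design allows to bind more than one transcript.

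Trp53inp1 encodes a stress-induced nuclear and autophagy protein that aids p53 in promoting cell death. Its brighter probe set, 1416926_at, had signals of 530.9 and 271.2 in the resistant pool (401.1 ± 184, SD, n = 2), against 220.4 and 257.4 in the original population (238.9 ± 26.2, SD, n = 2). Both resistant arrays lay above both original ones, by a wide margin for Resistant 1 and by a narrow one for Resistant 2. The log2 difference was 0.66 ± 0.314 (SE; 95% interval -0.03 to 1.36), the largest among the members, and did not pass (limma adjusted p = 0.709). It was 1.26 within number 1 and 0.07 within number 2. With the array number as a block its adjusted p was 0.0479, the 1 of 16 probe sets called in that fit, which calls 5.23% of all tested probe sets; that fit leaves 1 residual degree of freedom. The dimmer probe set, 1416927_at, had 98.2 and 50.8 in the resistant pool, against 64.8 and 31.9 in the original population, a difference of 0.60 ± 0.49 (SE; 0.58 and 0.62 within the numbers), and did not pass in either fit.

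**Figure D2:**
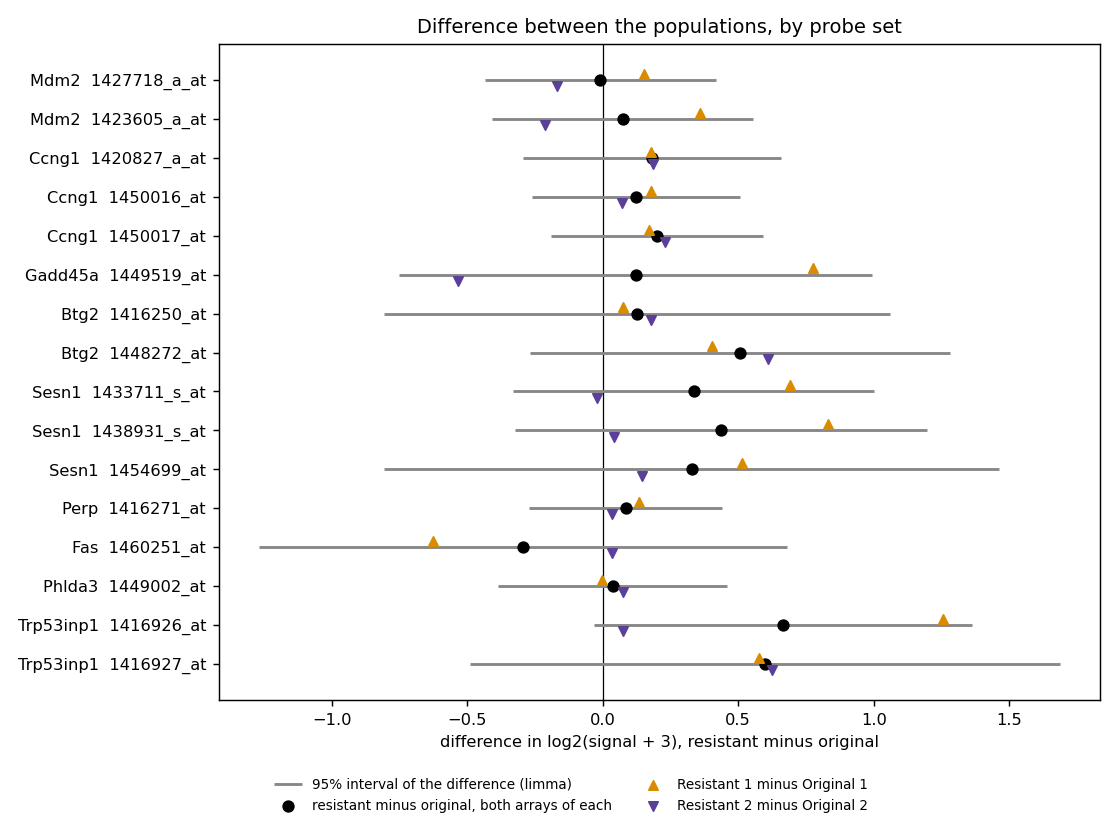
Difference in log2(signal + 3), resistant minus original, for each of the 16 probe sets: black points are the fitted differences, grey lines their 95% intervals, and triangles the differences within arrays numbered 1 (orange, pointing up) and 2 (purple, pointing down). Every interval includes 0, and the orange triangles of Gadd45a, Sesn1 and the brighter Trp53inp1 probe set lie far to the right of the purple ones.

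The genes of cell death gave no common direction. Perp encodes a membrane protein of desmosomes that p53 can use in apoptosis. It had signals of 2132.6 and 2140.8 in the resistant pool (2137 ± 5.8, SD, n = 2), against 1941.2 and 2090.2 in the original population (2016 ± 105, SD, n = 2). The groups did not overlap, but the log2 difference was only 0.08 ± 0.161 (SE; 95% interval -0.27 to 0.44), with 0.13 and 0.03 within the numbers. Perp and the brighter Trp53inp1 probe set were the 2 of 16 in which the resistant values were all higher, against 17.7% of all tested probe sets, and 0 of 16 were all lower, against 18.2%.

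Fas encodes the death receptor that Fas ligand engages. It had signals of 1194.5 and 627.7 in the resistant pool, against 1843 and 612 in the original population. The arrays numbered 1 were the 2 bright ones, so that number 2 over number 1 was 0.525 in the resistant pool and 0.332 in the original population. The log2 difference between the populations was -0.30 ± 0.439 (SE; 95% interval -1.27 to 0.68), with -0.63 within number 1 and 0.04 within number 2. Phlda3, whose product competes with the kinase AKT for membrane lipids, had 2308.3 and 2998.3 in the resistant pool, against 2313 and 2841.9 in the original population. Its log2 difference was 0.04 ± 0.19 (SE; 95% interval -0.39 to 0.46), and both populations spanned nearly the same range.

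For most members the difference between the array numbers was larger than that between the populations. This held for 14 of the 16 probe sets, against 53.7% of all tested probe sets, and for 7 of the 9 genes by their brightest probe set. In 14 of 16 probe sets number 2 minus number 1 also had the same sign in both populations, against 63.5% of all tested; the exceptions were Gadd45a and the brighter Trp53inp1 probe set. Probe sets of 1 gene share their transcript and are not independent. By gene, number 2 was higher in both populations for 5 (Mdm2, Ccng1, Btg2, Perp and Phlda3) and number 1 for 2 (Sesn1 and Fas). Resistant 1 was the highest array for 6 of 16 probe sets, those of Sesn1, Trp53inp1 and Gadd45a, against 28.4% of all tested.

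**Figure D3:**
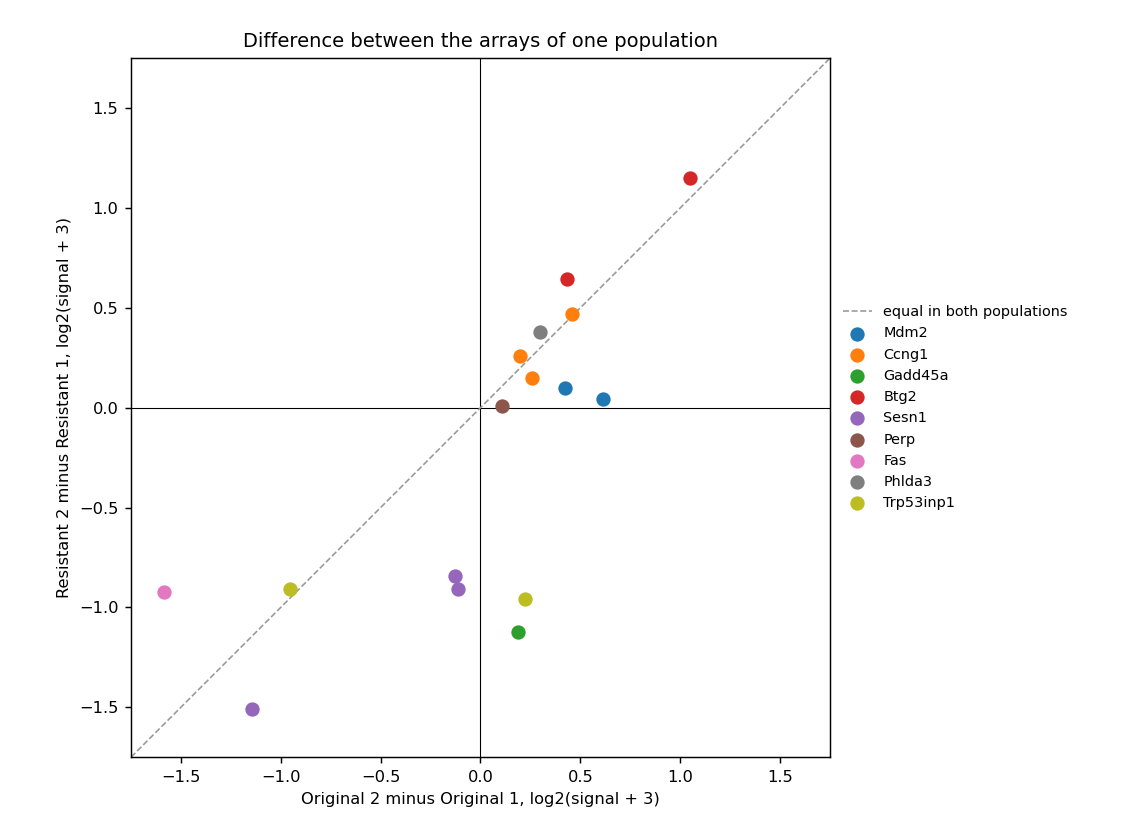
Difference between the arrays numbered 2 and 1 in log2(signal + 3), with the resistant pool on the vertical and the original population on the horizontal axis, 1 point per probe set coloured by gene; the dashed line marks equal differences. Btg2, Ccng1 and Phlda3 lie close to the line above 0, Fas and 1 probe set each of Sesn1 and Trp53inp1 lie at or beyond -0.9 on both axes, and Gadd45a and the brighter Trp53inp1 probe set are negative in the resistant pool alone.

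The wider pathway was read from a list of 55 other genes, of which 47 had a probe set and 40 passed the filter. With limma and Benjamini-Hochberg adjustment 0 of the 40 passed, against 0.169% of all tested probe sets, and the lowest adjusted p was 0.551. At an unadjusted p under 0.05 there were 5 of 40, against 7.35% of all tested. Of the 40, 23 were fitted above 0 and 17 below, with a median log2 difference of 0.05. With the array number as a block 4 of the 40 were called, beside 5.23% of all tested probe sets, Sesn3 and Ddit4 higher and Plk2 and Gadd45b lower in the resistant pool. Bax had no probe set of its own symbol alone.

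Among upstream kinases and activators 0 of 7 measured genes passed, with a median of -0.12. Usp7, a deubiquitinase that acts on both Mdm2 and p53, had the largest positive difference by brightest probe set (0.31 ± 0.159, SE). Its signals there were 4955.4 and 4677.9 in the resistant pool, against 3955.6 and 3802.1 in the original population. Its dimmer probe set, 1419921_s_at, had 206.4 and 112.8 against 116.4 and 168.9. That gave 0.12 ± 0.362 (SE), with 0.81 within number 1 and -0.57 within number 2. Atr, the kinase of replication stress, had the largest negative difference by brightest probe set (-0.27 ± 0.238, SE). Cdkn2a, the locus of the Mdm2 inhibitor p19ARF, was below the filter, with 27.8 and 29.7 in the resistant pool, against 30 and 25.7 in the original population. The 4 other negative regulators of p53 lay between -0.15 ± 0.274 (SE) for Mdm4, the Mdm2 partner, and 0.06 ± 0.273 (SE) for Ppm1d, a phosphatase that switches off damage signalling, and 0 of 4 passed.

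Of the other cell-cycle targets 0 of 5 measured genes passed. Cdkn1a, which encodes the CDK inhibitor p21 and is the best known p53 target, had signals of 1630 and 1808.4 in the resistant pool, against 966.3 and 1743.4 in the original population, in its brighter probe set 1424638_at. The groups overlapped, since Original 2 was above Resistant 1, and the log2 difference was 0.40 ± 0.251 (SE), with 0.75 within number 1 and 0.05 within number 2. Its probe set 1421679_a_at differed by 0.43 ± 0.435 (SE), with 0.41 within number 1 and 0.45 within number 2. Plk2, a polo-like kinase gene that p53 can induce, had 978 and 2168.4 in the resistant pool, against 2144.5 and 3247.4 in the original population. Its log2 difference was -0.86 ± 0.327 (SE; limma adjusted p = 0.579), with -1.13 and -0.58 within the numbers, and with the array number as a block the adjusted p was 2.67e-06. With 1 array left out, where the lone array is assumed to vary like the other population, it was called without Resistant 2 (-1.43) and without Original 1 (-1.16) and not without Resistant 1 or Original 2.

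The targets of apoptosis and repair gave the same picture of 0 calls in the limma test over all probe sets, with 7 measured genes in each list. Bbc3, which encodes the BH3-only killer protein PUMA, was dim, at 53.5 and 44.8 in the resistant pool, against 55.8 and 96.5 in the original population (-0.56 ± 0.426, SE). Pidd1 was at the other end of the apoptosis list (0.24 ± 0.307, SE). Rrm2b, a p53-induced ribonucleotide reductase subunit that supplies nucleotides for repair, had signals of 447.7 and 427.7 in the resistant pool, against 284.5 and 306.3 in the original population. Those groups did not overlap, and the log2 difference of 0.56 ± 0.218 (SE; 0.65 and 0.48 within the numbers) did not pass (limma adjusted p = 0.584, and 0.105 with the array number as a block). Ddb2, a damage recognition gene, was at -0.26 ± 0.446 (SE; -0.70 and 0.17 within the numbers) in its brightest probe set. Its other probe set, 1436680_s_at, went the other way, at 0.36 ± 0.461 (SE). Ddit4, an mTORC1 inhibitor called with the block (limma adjusted p = 0.0247), differed by 1.12 within number 1 and -0.04 within number 2. As for Trp53inp1, the SE in that fit comes from the pooled trend and not from the gap between these 2 values.

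Downstream of Fas, 0 of 3 measured genes passed. Casp8, the initiator caspase of the receptor, had 987.8 and 759.9 in the resistant pool, against 731.6 and 588.3 in the original population (0.40 ± 0.209, SE). Fadd, the adaptor between Fas and that caspase, was at -0.12 ± 0.298 (SE), and Fasl, the ligand, was below the filter.

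The paralogs of the members included 2 genes that were called with the array number as a block and 0 of 7 that passed without it. Sesn3, a sestrin like Sesn1, had signals of 696.9 and 334.6 in the resistant pool, against 323 and 230.5 in the original population, a log2 difference of 0.82 ± 0.333 (SE; 1.10 and 0.53 within the numbers). Its adjusted p was 0.605 in limma and 0.00424 with the block. Gadd45b, a stress gene of the Gadd45a family, had 1636.1 and 1684.8 in the resistant pool, against 2500.5 and 2097.6 in the original population, a difference of -0.46 ± 0.169 (SE; -0.61 and -0.32 within the numbers). Its adjusted p was 0.551 in limma and 0.0466 with the block. All 3 of its probe sets, which share a transcript, had both resistant values below both original values, against 18.2% of all tested probe sets. The p53 family genes Trp63 and Trp73 were below the filter in all their probe sets and were not tested. They were named here after their values were seen. The brightest of Trp63 had 58.9 and 43.6 in the resistant pool, against 1.1 and 26.9 in the original population. Its other probe sets overlapped and went both ways, at 0.60 for 1418158_at and -0.29 for 1452027_a_at. The brightest of Trp73 had 19.5 and 7 in the resistant pool, against 30.4 and 27.4 in the original population.

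**Figure D4:**
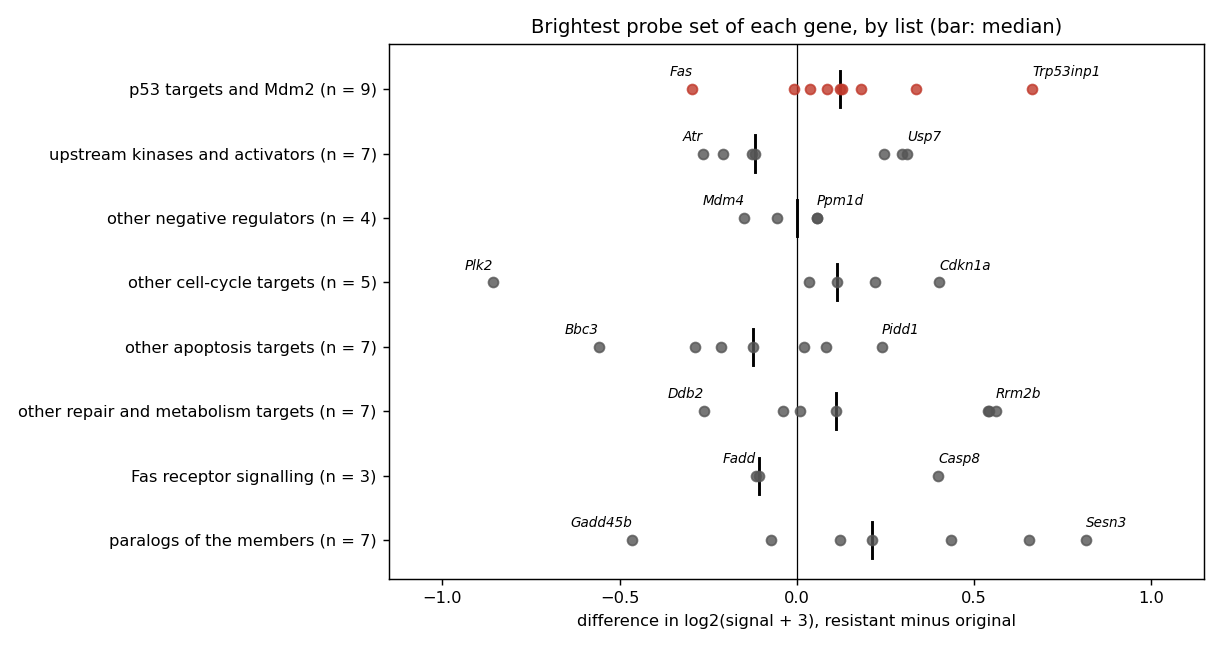
Difference in log2(signal + 3), resistant minus original, of the brightest probe set of each gene that passed the filter, with the members in the top row (red) and the other pathway lists below (grey); black bars are medians and the ends of each list are named. Members run from -0.30 for Fas to 0.66 for Trp53inp1, inside the range of the other genes, from -0.86 for Plk2 to 0.82 for Sesn3.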

How the data were processed

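RNA of 4 NF639 cultures was hybridised to Affymetrix Mouse 430A 2.0 arrays, per the series' design text. The deposited intensity values are MAS5 signals on a linear scale, per the submitters' processing notes; no version is given in the sources used here. The 2% trimmed mean was 500.2 on every array in the deposited intensities, so a global difference in RNA content would have been scaled away. The number of arrays limits the precision. Probe sets were named from the platform annotation (20380 with 1 symbol, 691 with several, 1555 unlisted).

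Arrays were rescaled to a common 2% trimmed mean without the 64 control probe sets, and log2(signal + 3) was taken, which understates changes of dim genes. After the filter, limma 3.58.1 in R 4.3.3 (lmFit, eBayes with a trend) fitted resistant minus original, two-sided, with Benjamini-Hochberg adjustment over 13576 probe sets; the procedure was tested on simulated data. A gene took its brightest probe set. The members and lists were chosen with earlier results of these data known. All members were named, and of the other lists the largest rise and fall and any called gene, with Cdkn1a, Bax, Mdm4, Cdkn2a and Ppm1d; Trp63, Trp73 and Fasl were added after their values were seen. The labels do not say that a replicate number marks an experiment, so the number is a block only in an alternative; number 2 minus number 1 correlated at 0.35 between the populations across probe sets. Promoter windows came from RefSeq, GRCm38.p6. Alternatives changed the normalization, pseudocount, filter, variance model, block, probe set choice and arrays.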

Additional observations from a re-analysis of the deposited data

How the results depend on the processing

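The count of 0 member genes past the threshold held in 12 of 13 alternatives; with the replicate block it was 1 (Trp53inp1), and without that block the lowest adjusted p in any alternative was 0.0958, for Fas without Original 2. The median of the member genes ran from 0.0258 to 0.216 over the fits that left out 1 array. Over all probe sets, 23 passed; the count was 8 with quantile normalization, 5 with no filter, 10 with a filter at the 60th percentile, 0 with no variance trend, 710 with the replicate block and 75 to 155 with 1 array left out. Of the other pathway genes 4 passed with the replicate block and 0 to 1 with 1 array left out (Plk2 without Resistant 2 or Original 1), and their median was -0.00607 to 0.105 in those fits. For the replicate block limma estimated an infinite prior, so p-values there rest on the pooled trend of spread against brightness.

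The sign of 7 members' differences turned with 1 array left out, with 0 of these values called. The log2 difference then ran from -0.22 (without Original 1) to 0.202 (without Original 2) for Mdm2, and was 0.041 without Resistant 1 and 0.0321 with the mean of its probe sets. Between the fits without Resistant 2 and without Resistant 1 it went from -0.054 to 0.417 for Ccng1, -0.449 to 0.703 for Btg2 and -0.153 to 0.225 for Phlda3, and from 0.682 to -0.44 for Gadd45a and 0.756 to -0.0859 for Sesn1. For Fas it was -1.09 without Original 2, 0.497 without Original 1 and 0.167 without Resistant 2. Without Original 1 it was -0.0489 for Ccng1, -0.397 for Btg2 and -0.113 for Phlda3. Perp (0.0295 to 0.138) and Trp53inp1 (0.185 to 1.14) kept their sign in every alternative. Gadd45a gave no value with a filter at the 60th percentile. A fit without 1 array sets unequal array numbers against each other, so its value takes in part of the difference between the numbers. Within number 1 and number 2 the differences of Ccng1 (0.18 and 0.19) and Btg2 (0.08 and 0.18) were all above 0. Any further cause was not tested. With 2 arrays a group the 95% intervals of Btg2, Gadd45a and Fas are wide, and differences within them were not detectable.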
